A study of Homo sapiens with 4 samples.

Results

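The mRNA levels of 30 nucleoporin genes, which encode the building blocks of the nuclear pore complex, were followed in human RPE1 cells after depletion of topoisomerase 2B (TOP2B). The genes were listed by name as known parts of the pore, a rule that uses no measured value. All 30 were found among the 60725 genes of the count table, and all 30 passed the filter of at least 10 reads in at least 2 libraries that 15356 genes passed. The polyA RNA-seq data comprised 2 libraries of control cells and 2 of TOP2B knockdown cells. All 4 came from RPE1 SunTag, an hTERT-immortalised retinal pigment epithelial line that carries the SunTag system, and in all 4 the cells received 10 nM siRNA, a second transfection after 48 hours, and a further 72 hours before harvest on day 5. Control cells received Silencer Select Negative Control No. 2, labelled scramble, and knockdown cells received a pool of TOP2B siRNAs. The 2 conditions thus differ in their siRNAs as well as in TOP2B, and effects of the siRNAs and of the loss of TOP2B cannot be told apart in these libraries.

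The nuclear pore complex is the channel through the nuclear envelope that carries proteins and RNA between nucleus and cytoplasm. Its scaffold consists of outer rings, built from Y-shaped complexes, and an inner ring that is anchored in the membrane. Nucleoporins rich in phenylalanine-glycine repeats fill the central channel and form the barrier that transport receptors can cross. Filaments on the cytoplasmic face release exported mRNA, and a basket on the nuclear face contacts chromatin and the lamina. In dividing cells the pores are taken apart and rebuilt at every mitosis, and new pores are inserted during interphase.

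The libraries held 20310259 to 23887013 reads in genes, so that 1 CPM, the unit of level used here, in which reads are divided by the TMM-scaled library size, stood for 20.2 to 23.9 reads. TOP2B itself had 3709 and 3272 reads in control cells and 324 and 268 in knockdown cells, which is 9.58% of the control level. Of the defining genes of retinal pigment epithelium, MITF and OTX2 were read in every library, whereas RPE65 and TYR had 0 reads and RLBP1 at most 1. The summed level of 9 pigment epithelial and epithelial markers was 1509 to 1822 CPM in control and 1178 to 1462 CPM in knockdown libraries, and its part in the results below was not tested. Most of this sum was KRT8 and KRT18, with a log2(fold change) of -0.35 and -0.39, whereas MITF and OTX2 had 0.19 and 0.16, and none of the 4 was called by edgeR. Markers of endothelial cells summed to at most 1.63 CPM, those of leukocytes to at most 0.307 CPM and those of erythroid and neuronal cells to at most 0.71 CPM in any library, and 3 mesenchymal markers, mostly VIM, summed to between 945 and 1023 CPM. Such bulk values are relative to all mRNA in a library, and a change in RNA per cell cannot be told apart from them.

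Most nucleoporin mRNAs were slightly higher after TOP2B knockdown, and few of them passed the test. NUP54, NUP43 and NUP205 rose in the edgeR test, and no nucleoporin gene fell. In the edgeR quasi-likelihood fit over all genes, 3 of 30 nucleoporin genes (10%) were called at a Benjamini-Hochberg adjusted p below 0.05, against 10.8% of all genes tested. All 3 were higher, against 6.66% of all genes called higher, and 0 were lower, against 4.18% of all genes. At an unadjusted p below 0.05 the counts were 11 higher (36.7%) and 0 lower, against 14.5% and 11.8% of all genes. DESeq2 called 5 higher (16.7%) and 0 lower, against 6.78% and 4.77% of the 13458 genes to which it gave an adjusted p. Every nucleoporin gene had at least 334 reads in each library. Of the 10893 genes with a mean of at least 100 reads, edgeR called 889 higher and 539 lower. At an unadjusted p below 0.05 there were 1819 and 1461, and DESeq2 called 848 and 602. These are larger shares than over all genes tested. In the edgeR fit the share called in either direction was close to that of all genes. The share of members that were higher exceeded that of all genes tested by each of the 3 rules. In the edgeR fit this was 10% against 6.66% and rests on 3 genes. The log2(fold change) was above 0 for 25 of 30 genes (83.3%) against 49.8% of all genes tested. Its median was 0.20, against -0.0029 over all genes tested and -0.012 over genes with a mean of at least 100 reads. Without NUP54 the median was 0.195.

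**Figure D1:**
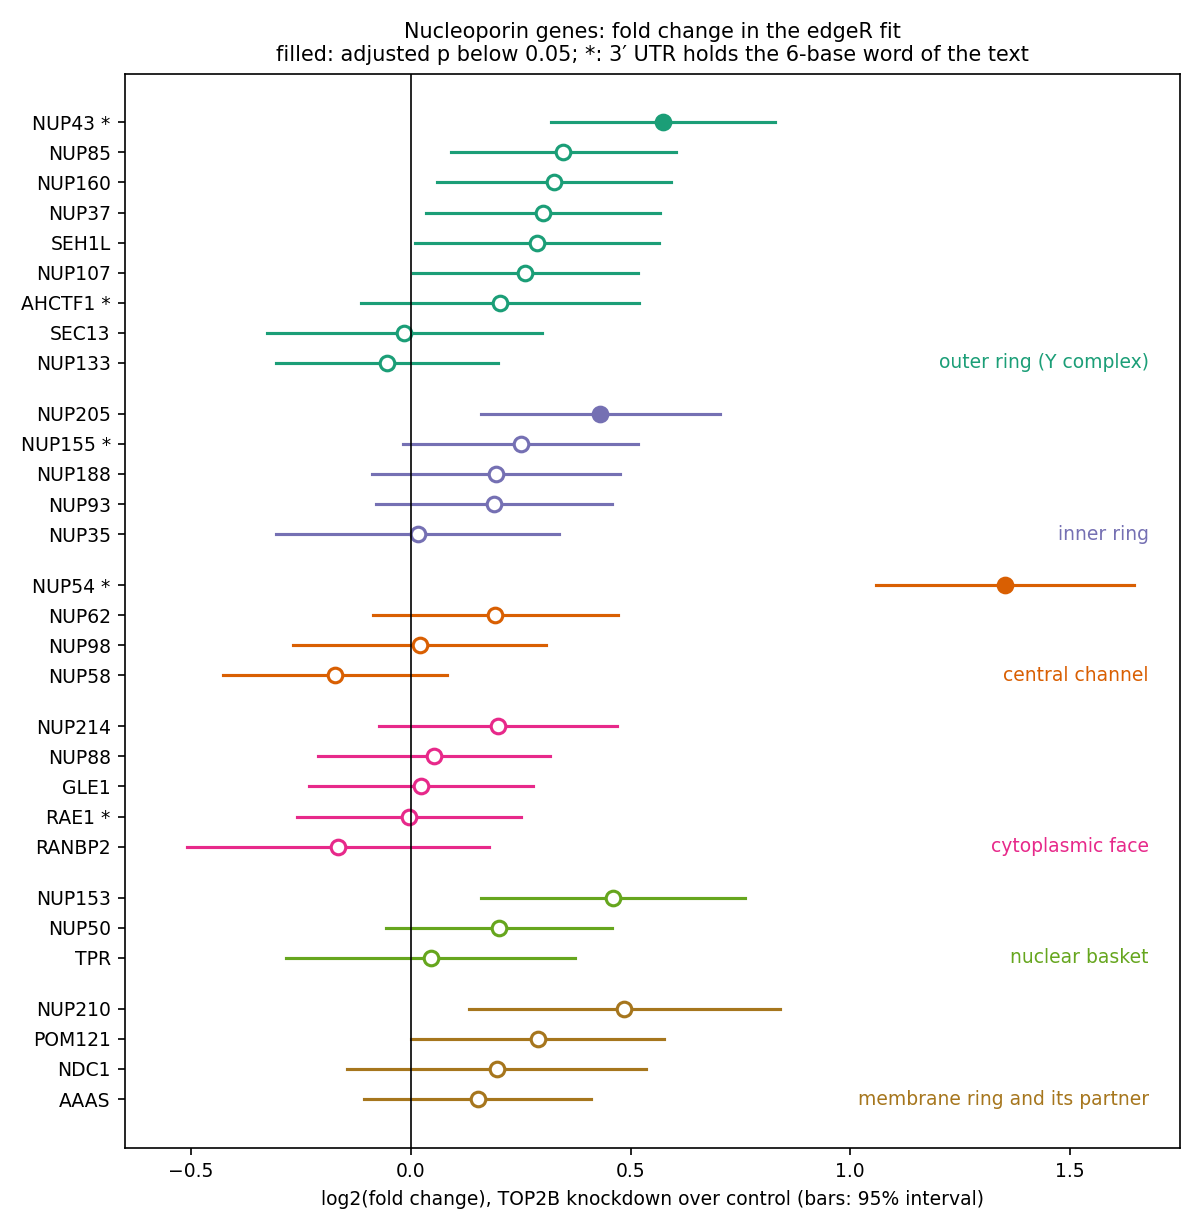
Log2(fold change) of each of the 30 nucleoporin genes, knockdown over control, with its 95% interval from the edgeR fit, grouped by place in the pore; filled points have an adjusted p below 0.05 and a star marks genes with the word GCAACC in the 3′ UTR. NUP54, at 1.35, lies apart from the other 29 genes, which lie between -0.17 and 0.57.

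The separation of the libraries gave the same picture. Both knockdown libraries lay above both control libraries for 18 of 30 genes (60%), against 27.7% of all genes tested. Both lay below for 2 genes, NUP133 and NUP58 (6.67%), against 26.6% of all genes, and for the other 10 genes the libraries of the 2 conditions overlapped. The 30 genes summed to 2922 and 2790 CPM in the control libraries and to 3343 and 3132 CPM in the knockdown libraries, or 0.293% and 0.278% against 0.335% and 0.311% of all reads. Between single libraries the median difference on the log2 CPM scale was 0.167 to 0.274 when each knockdown library was set against each control library, and 0.0144 and 0.0321 in the pairs within control and within knockdown. The offset of the list between conditions was therefore wider than that between replicates, although for most single genes it stayed within the error of the fit.

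**Figure D2:**
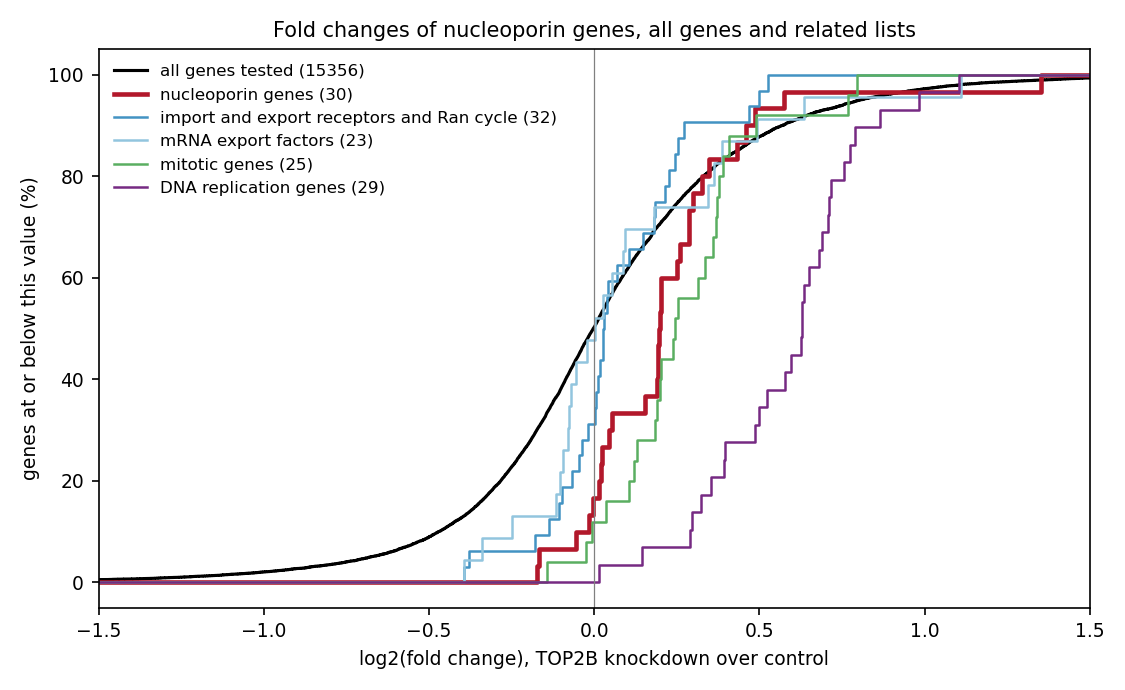
Cumulative share of genes, in percent, at or below each log2(fold change), for the 30 nucleoporin genes, all 15356 genes tested and 4 related lists. The line of the nucleoporin genes crosses 50% near 0.20, to the right of all genes and of the transport receptors and mRNA export factors, and to the left of the DNA replication genes, which cross at 0.63.

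Levels of different nucleoporins were compared per length, as CPM per kb of the canonical transcript. Reads were counted per gene, and all annotated exons together are longer than this transcript. They span 5380 bases against 1359 for SEC13, 15569 against 2249 for NUP54 and 13395 against 4236 for NUP58. The order below therefore holds for the canonical length only. In control cells the highest was SEC13 with 101.5 CPM per kb (94.1 and 108.9 in the 2 libraries), a protein that is also part of the COPII coat of secretory vesicles. NUP98 followed with 39.0, AAAS with 35.9 and SEH1L with 30.2 CPM per kb. The lowest levels were those of NUP214 with 9.75, NUP54 with 8.32 and AHCTF1 with 7.35 CPM per kb. Along this order the control libraries of neighbouring genes overlapped in 17 of 29 pairs, mostly in the middle of the range, whereas the first 3 and the last 3 genes were each separate from their neighbours. By the canonical length, NUP54 stood at 21.3 CPM per kb in knockdown cells, near NUP58 there (20.9 CPM per kb). NUP58 was at 23.5 CPM per kb in control cells.

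**Figure D3:**
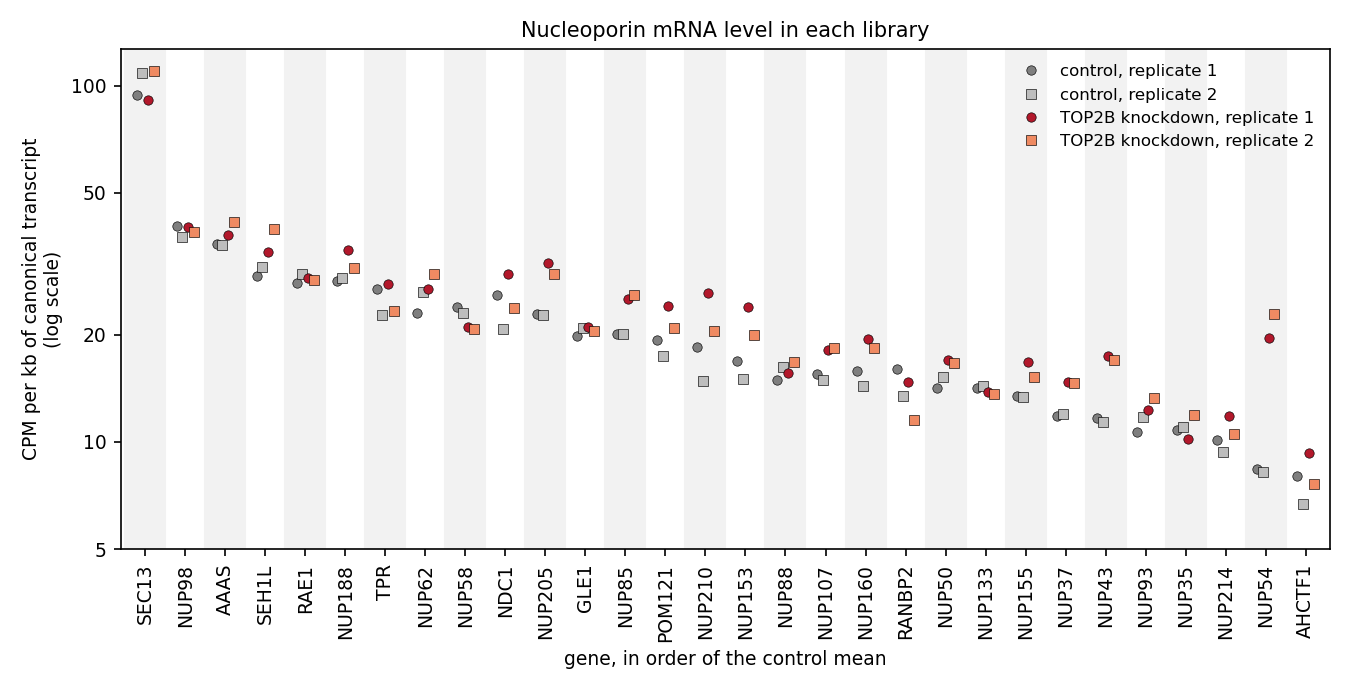
Level of each nucleoporin mRNA in each of the 4 libraries, in CPM per kb of canonical transcript on a log axis, with genes in the order of their control mean. SEC13 stands alone at the top, and NUP54 is the only gene whose knockdown points lie more than 2-fold from its control points.

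The central channel showed the widest spread among the pore's groups. NUP54, NUP58 and NUP62 form a complex of coiled coils that carries phenylalanine-glycine repeats in the channel. NUP54 (ENSG00000138750, chromosome 4 from 76107562 to 76148485, minus strand, GRCh38) had 18.9 and 18.5 CPM in control and 44.1 and 51.5 CPM in knockdown libraries, from 453 and 422 against 934 and 1039 reads. The knockdown libraries lay well above the controls, with means of 18.7 ± 0.285 and 47.8 ± 5.27 CPM (SD, n = 2). NUP54 rose by 1.35 on the log2 scale (SE 0.13, 95% interval 1.06 to 1.65), a 2.55-fold change, with an adjusted p of 0.000624 in the edgeR test. Overlapping exons of ART3 make up 11.7% of the exon bases of NUP54, but ART3 had 1 read in a single control library and 0 in the others.

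The intervals of both partners of NUP54 ended below that of NUP54. NUP58 (chromosome 13 from 25301524 to 25365390, plus strand) had 101.4 and 97.8 CPM in control and 89.1 and 87.7 CPM in knockdown libraries. Its knockdown libraries were the lower ones, with a log2(fold change) of -0.17 (95% interval -0.43 to 0.08, adjusted p = 0.379 by edgeR). NUP62 (chromosome 19 from 49906825 to 49929764, minus strand) had 77.2 and 88.5 CPM in control and 90.1 and 99.2 CPM in knockdown libraries, with a log2(fold change) of 0.19 (-0.09 to 0.47). Its exons share 20.1% of their bases with other genes, among them ATF5 and IL4I1, so that its reads are less certain. The ratio of NUP54 to NUP58 in CPM was 0.186 and 0.189 in control and 0.495 and 0.588 in knockdown libraries, 2.88 times higher on average. The ratio of NUP54 to NUP62 went from 0.245 and 0.209 to 0.489 and 0.519, and that of NUP58 to NUP62 from 1.31 and 1.11 to 0.988 and 0.884. The balance between these 3 mRNAs thus differed between the conditions without overlap of the libraries. With 2 libraries a side an exact two-sided permutation test of such a ratio cannot give a p below 0.333, and none was run. NUP98, whose transcript encodes both the mobile repeat protein NUP98 and the scaffold protein NUP96, had 272.1 and 252.7 CPM in control and 270.6 and 261.7 CPM in knockdown libraries. Its libraries overlapped, with a log2(fold change) of 0.02 (-0.27 to 0.31).

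**Figure D4:**
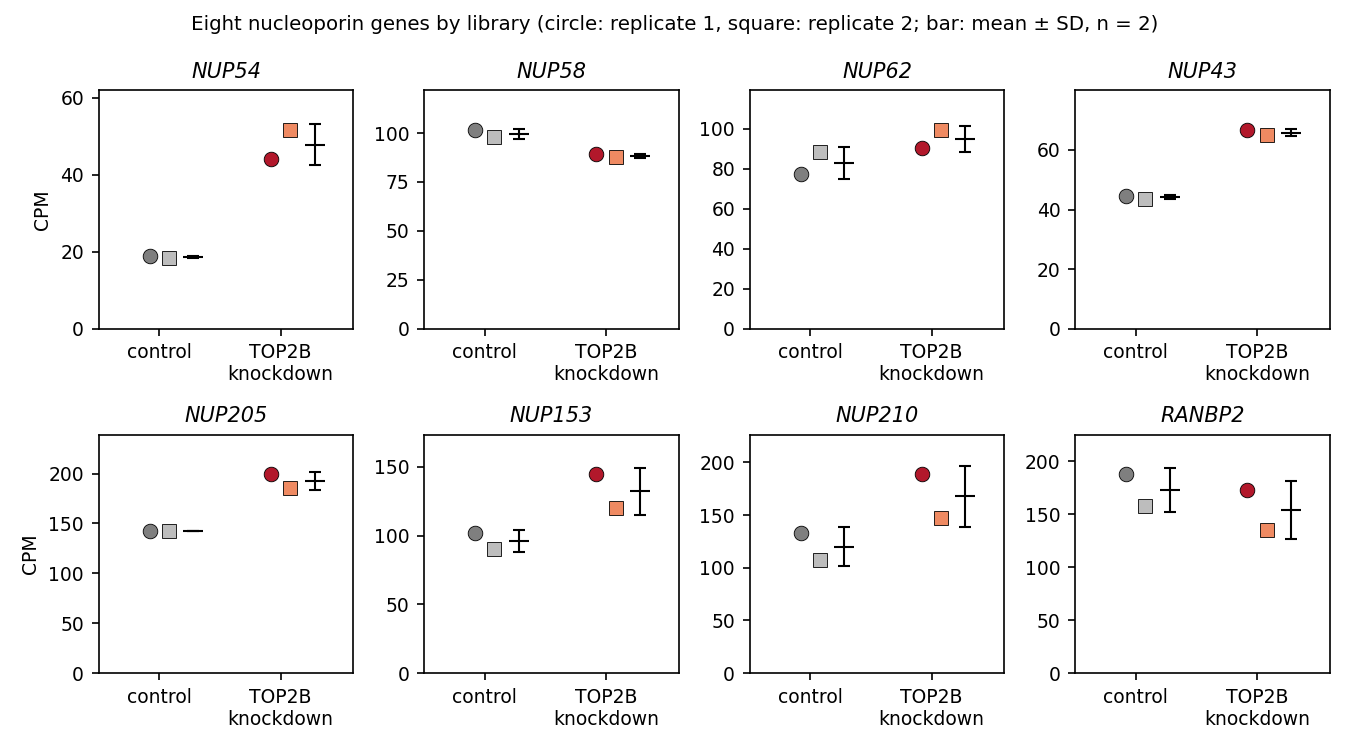
CPM of 8 nucleoporin genes in each library (circles for replicate 1, squares for replicate 2), with the mean and SD of each condition (n = 2) and axes from 0. The knockdown points lie above the control points for NUP54, NUP62, NUP43, NUP205, NUP153 and NUP210, below them for NUP58, and overlap with them for RANBP2.

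The outer ring is built from the Y complex, in which NUP160, NUP85 and NUP43 lie in the arms and NUP107 and NUP133 in the stem. Of its 9 genes here, 1 was called higher and 0 lower by both edgeR and DESeq2 (6 and 0 at an unadjusted p below 0.05), 7 had a log2(fold change) above 0, 6 had both knockdown libraries above both controls, and the median was 0.29. Over all genes tested, the comparison for this group and those below, edgeR called 6.66% higher and 4.18% lower. At an unadjusted p below 0.05 the shares were 14.5% and 11.8%, and by DESeq2 6.78% and 4.77% of genes with an adjusted p. Both knockdown libraries lay above both controls for 27.7% of all genes tested. NUP43 (ENSG00000120253, chromosome 6 from 149724315 to 149749665, minus strand), a beta-propeller protein, had 44.6 and 43.7 CPM in control and 66.6 and 64.9 CPM in knockdown libraries. These values lay close together within each condition and apart between them. NUP43 rose by 0.57 (SE 0.11, 95% interval 0.32 to 0.83), or 1.49-fold, with an adjusted p of 0.0127 by edgeR. When each library was left out in turn, the adjusted p of NUP43 was 0.0308 to 0.0535, and the call was lost without control replicate 2. PCMT1, which overlaps 5.02% of its exon bases, had a log2(fold change) of -0.06.

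The other members of the Y complex had smaller values and did not pass the test. NUP85 had 43.0 and 42.8 CPM in control and 53.8 and 55.2 CPM in knockdown libraries, with a log2(fold change) of 0.35 (95% interval 0.09 to 0.60) and an adjusted p of 0.0858 by edgeR. NUP160 had 82.8 and 74.8 against 101.8 and 95.9 CPM, with 0.33 (0.06 to 0.59). NUP37, SEH1L and NUP107 had log2(fold change) values of 0.30, 0.29 and 0.26, each with both knockdown libraries above the controls and adjusted p values of 0.140 to 0.182 by edgeR. SEH1L is shared with GATOR2, a regulator of mTORC1. AHCTF1 (ELYS) is the protein that binds chromatin and starts pore assembly as mitosis ends. AHCTF1 had 71.1 and 59.5 CPM in control and 82.6 and 67.8 CPM in knockdown libraries, which overlapped. Between libraries of the same replicate number, AHCTF1 was higher in knockdown, by 0.21 and 0.19 on the log2 scale. The labels do not say that libraries of the same replicate number belong together, so such pairs are a description only. SEC13 had 127.9 and 148.0 against 123.6 and 149.6 CPM and overlapped as well, with -0.01 (-0.33 to 0.30). NUP133, at the foot of the stem, had 73.7 and 74.6 CPM in control and 72.1 and 70.8 CPM in knockdown libraries. NUP133 therefore lay slightly lower in both knockdown libraries, with a log2(fold change) of -0.05 (-0.31 to 0.20), while its stem partner NUP107 had 96.6 and 92.4 against 112.7 and 113.8 CPM.

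The inner ring surrounds the channel and holds the repeat proteins in place. Of its 5 genes, 1 was called higher, all 5 had a log2(fold change) above 0, and the median was 0.19. NUP205 (ENSG00000155561, chromosome 7 from 135557917 to 135648757, plus strand), a large scaffold protein, had 142.8 and 142.7 CPM in control and 199.0 and 185.9 CPM in knockdown libraries. The 2 control libraries were nearly equal and the knockdown libraries were clearly above them. NUP205 rose by 0.43 (SE 0.12, 95% interval 0.16 to 0.70), or 1.35-fold, with an adjusted p of 0.0497 by edgeR. This call sits at the threshold. Leaving out any 1 of the 4 libraries ended it, with adjusted p values of 0.168 to 0.308 by edgeR. NUP188, the paralog of NUP205, had 161.5 and 164.4 CPM in control and 197.3 and 175.5 CPM in knockdown libraries, with 0.19 (-0.09 to 0.47). NUP155, which links the ring to the membrane, had 0.25 (-0.02 to 0.52), and NUP93, which ties the ring to the channel proteins, had 0.19 (-0.08 to 0.46). NUP35, a membrane-binding member, had 16.7 and 17.1 CPM in control and 15.8 and 18.3 CPM in knockdown libraries, which overlapped.

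None of the 5 genes of the cytoplasmic face was called by edgeR (0 also at an unadjusted p below 0.05 and by DESeq2), and their median of 0.02 was the lowest of the groups. NUP214, which anchors the export platform, had 76.6 and 71.1 CPM in control and 89.7 and 79.7 CPM in knockdown libraries, with 0.20 (95% interval -0.07 to 0.47). Its partner NUP88 had 0.05, although 35.5% of its exon bases are shared with neighbouring genes such as RABEP1 and RPAIN. GLE1, the activator of the mRNA-releasing helicase DDX19, had 65.6 and 69.2 against 69.3 and 67.5 CPM. RAE1, an mRNA export factor that binds NUP98, had 66.7 and 70.5 against 68.8 and 68.0 CPM. RANBP2, the large filament protein that binds Ran and SUMO-modified RANGAP1, had 187.4 and 157.8 CPM in control and 173.0 and 134.7 CPM in knockdown libraries, with -0.17 (-0.51 to 0.18). The libraries of the 2 conditions overlapped. Between libraries of the same replicate number, a pairing that the labels do not give, RANBP2 was lower in knockdown, by -0.12 and -0.23 on the log2 scale. RANBP2 has near-identical copies, of which RGPD8 had 35 to 50 reads per library and the others at most 8. The reads of RANBP2 itself are uncertain. The counts of the copies set no bound on this, because reads that fit more than 1 copy may not have been counted.

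The nuclear basket had no gene called by edgeR among 3, and DESeq2 called 1, NUP153, as higher (adjusted p = 0.0363). NUP153, which anchors the basket and binds lamins and chromatin, had 101.8 and 90.6 CPM in control and 144.4 and 120.3 CPM in knockdown libraries. Both knockdown libraries lay above both controls, with a log2(fold change) of 0.46 (95% interval 0.16 to 0.76) and an adjusted p of 0.0574 by edgeR. The antisense gene NUP153-AS1 covers 10.6% of its exon bases. The column names of the count table carry the tag stranded, together with a tag for paired ends that goes against the single-end reads of the protocol, so whether strand was used in counting is uncertain, and reads from both strands may be mixed there. NUP50, a cofactor in the recycling of importins, had 73.0 and 78.2 against 87.7 and 86.0 CPM, with 0.20 (-0.06 to 0.46). TPR, the main filament of the basket, had 258.2 and 218.2 against 266.8 and 224.7 CPM, with 0.05 (-0.28 to 0.37), and its libraries overlapped.

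The membrane ring comprised NDC1, POM121 and NUP210, which span the nuclear membrane, and AAAS (ALADIN), which NDC1 holds at the pore. All 4 had a log2(fold change) above 0, with a median of 0.24. None was called by edgeR, and DESeq2 called 1, NUP210, as higher (adjusted p = 0.0448). NUP210 had 132.9 and 106.9 CPM in control and 188.5 and 147.4 CPM in knockdown libraries, with 0.49 (95% interval 0.13 to 0.84) and an adjusted p of 0.0822 by edgeR. The knockdown libraries lay above the controls, and within each condition replicate 1 was the higher one. POM121 had 113.2 and 101.5 against 140.3 and 121.8 CPM, with 0.29 (0.00 to 0.58). Its near-identical paralog POM121C had 0.27 (adjusted p = 0.272 by edgeR), and the reads of this pair are uncertain. NDC1 had 117.9 and 94.6 against 135.0 and 108.4 CPM, which overlapped. Between libraries of the same replicate number, a pairing that the labels do not give, NDC1 was higher in knockdown, by 0.195 and 0.195 on the log2 scale. Among the other nucleoporin genes whose libraries overlapped, NUP88 and TPR were also higher in knockdown in both such pairs. For SEC13, NUP35, NUP98, GLE1 and RAE1 the difference changed sign between the pairs. AAAS had 65.4 and 64.7 against 69.4 and 75.3 CPM, with 0.15 (-0.11 to 0.41).

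The 6-base word GCAACC in 3′ UTRs had been linked to higher values in knockdown libraries in an earlier look at the same data, so its occurrence here is not independent support. It was searched on the transcribed strand of the canonical 3′ UTR and was found in 5 of the 29 nucleoporin genes with a 3′ UTR (17.2%), against 23.6% of 12385 genes tested. These were NUP54, NUP43, NUP155, AHCTF1 and RAE1. The sites of NUP54, AHCTF1 and RAE1 are shown, because NUP54 had the largest fold change of the 30 genes and the other two, which were not called, allow its flanks to be compared. Each window has 26 bases, 5′ to 3′ on the gene's strand in GRCh38, with the word in capitals.
NUP54, chr4:76114730-76114755, minus strand: aaccatttttGCAACCattttgtttt
AHCTF1, chr1:246840097-246840122, minus strand: ctgctcacttGCAACCttatcaaagg
RAE1, chr20:57378568-57378593, plus strand: gggaaatgcgGCAACCttaggggaaa

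The site of NUP54 begins at base 621 of a 3′ UTR of 702 bases, near its end. Of the 5 genes with the word, 2 were called higher and the median log2(fold change) was 0.25, although RAE1 had -0.00. Of the 24 genes with a 3′ UTR but without the word, 1 was called higher, NUP205, and their median was 0.19. Over all genes tested, the median was 0.058 with the word and -0.038 without it, and 12.6% and 6.01% were called higher. These groups also differ in length, with a median 3′ UTR of 3162 bases with the word and 1010.5 bases without it. The part of the word in the values of NUP54 and NUP43 was not tested.

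Other genes of nuclear transport were counted from lists of known members of each class. For comparison, edgeR called 6.66% of all genes tested higher and 4.18% lower. At an unadjusted p below 0.05 the shares were 14.5% and 11.8%, and by DESeq2 6.78% and 4.77% of genes with an adjusted p. Of 6 further pore and paralog genes with enough reads out of 15 listed, 0 were called by edgeR, 0 had an unadjusted p below 0.05 and DESeq2 called 0, and their median was 0.11. Of 32 import and export receptors and Ran cycle genes, 2 were called higher and 0 lower by edgeR, with a median of 0.03. At an unadjusted p below 0.05 there were 3 higher and 2 lower, and DESeq2 called 2 higher and 2 lower. The lower ones by DESeq2 were the importins IPO8 and KPNA6, with -0.38 and -0.39 in the edgeR fit (adjusted p = 0.0695 and 0.0702 by edgeR), and they are named here after their values were seen. The higher ones were KPNA3, an importin alpha, with 94.6 and 99.6 CPM in control and 129.0 and 145.5 CPM in knockdown libraries (0.50, adjusted p = 0.0301 by edgeR), and RCC1, the chromatin-bound exchange factor that loads Ran with GTP, with 65.3 and 72.1 against 92.4 and 97.9 CPM (0.47, adjusted p = 0.0334 by edgeR). Of 23 mRNA export factors, 3 were called higher and 0 lower by both edgeR and DESeq2 (6 and 2 at an unadjusted p below 0.05), with a median of 0.00. NXT2, a cofactor of the mRNA export receptors, rose by 1.11, DDX39A, an RNA helicase of the export machinery, by 0.63, and ENY2, a subunit of the TREX-2 complex at the pore, by 0.49. The upward offset of the nucleoporin genes was thus not seen in the medians of the receptors and export factors, and the difference between these lists was not tested.

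Because pores are duplicated in each cell cycle, genes of proliferation were counted beside them. The shares to compare are again 6.66% of all genes tested called higher and 4.18% lower by edgeR. They are 14.5% and 11.8% at an unadjusted p below 0.05, and 6.78% and 4.77% by DESeq2 among genes with an adjusted p. Of 29 DNA replication genes, 20 were called higher and 0 lower by edgeR, as many as by DESeq2, with a median of 0.63 (27 and 0 at an unadjusted p below 0.05). CDC45, a subunit of the replicative helicase, rose by 1.11, MCM6, another subunit, by 0.98 and GINS3 by 0.87. Of 25 mitotic genes, 4 were called higher and 0 lower by edgeR (3 and 0 by DESeq2, 10 and 0 at an unadjusted p below 0.05), with a median of 0.25, and the 3 with the largest values were TTK (0.79), KIF11 (0.77) and KIF20A (0.49). The median of the nucleoporin genes lay near that of the mitotic genes and below that of the replication genes. The paper reports, from a cell cycle analysis by PI staining, no change in cell cycle progression after TOP2B depletion. Whether the values of the nucleoporin genes move with the share of cycling cells was not tested.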

How the data were processed

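PolyA RNA of 2 control and 2 TOP2B knockdown samples was sequenced by the authors as single-end 65-bp reads, aligned to GRCh38 with STAR (version 2.5.4a) after FastQC (0.11.6), and deposited as raw read counts per gene. Column names carry the tags stranded and PE, the second of which goes against the single-end protocol, so whether counting used strand is uncertain. The table repeats each sample's column, and the 4 identical copies were not used. Symbols were matched by Ensembl ID for 56558 of 60725 genes. Genes reaching 10 counts in 2 or more libraries were fitted with edgeR 4.0.16 (R 4.3.3; TMM, quasi-likelihood test, both conditions in 1 fit without covariates), with Benjamini-Hochberg adjustment over all 15356 genes. SE and 95% intervals were derived from the F statistic and the fit's degrees of freedom. CPM was computed from TMM-scaled totals of the tested genes, and positions, transcript lengths and 3′ UTRs come from GENCODE annotation of GRCh38. Intervals cover these libraries only. The paper describes the 2 samples per condition as independent biological replicates. The p-values set the difference between conditions against the spread between replicates, which the fit estimates partly from all genes together. Every nucleoporin gene listed was described, with TOP2B and at most the 3 called genes of largest change in each other list. Members and lists were chosen with earlier results of these data known. DESeq2 1.42.0, other scalings and filters, a replicate block and leaving out single libraries were tried as alternatives, and the edgeR script was tested on simulated data. Some sequence windows around the 3′ UTR word are not reported here.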

Additional observations from a re-analysis of the deposited data

How the results depend on the processing

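Of 3 nucleoporin genes called higher, NUP54 was called under every alternative tried. DESeq2 and edgeR without a count filter each called 5, adding NUP153 and NUP210, and edgeR with DESeq2 size factors or with library size alone called 2, without NUP205. Leaving out 1 library gave 1 to 4 called higher, with NUP54 alone left without control replicate 2 and 4 called without knockdown replicate 2. With the replicate number as a block, 20 were called higher and 2 lower (NUP58 and RANBP2), and over all genes 3440 higher and 3346 lower. Across genes, the difference between replicates 1 and 2 in control correlated with that in knockdown at 0.479. This rests on 1 pair of libraries per condition. The labels name no shared batch, and what samples of the same replicate number have in common was not tested. Without a count filter, 985 genes were called lower over the whole table. The median of the 30 genes was 0.181 to 0.202 over other tools, scalings, filters and the block, and 0.185 to 0.220 without 1 library. Small values changed sign without 1 library: SEC13 from -0.17 to 0.12, NUP35 from -0.11 to 0.13, NUP98 from -0.032 to 0.075, NUP88 from -0.014 to 0.11, GLE1 from -0.016 to 0.062, RAE1 from -0.044 to 0.036 and TPR from -0.079 to 0.17. The cause was not tested. Of 300 combinations of gene and setting, 256 kept direction and side of the threshold, 26 passed it newly, 7 lost it and 11 changed sign.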

Other observations

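Promoter sequences from RefSeq (GRCh38.p14, 250 bases before to 50 after the start) were matched for 27 of the 30 nucleoporin genes. The motif CCGGAAGT, searched on both strands, the core that ETS family factors are known to bind, was present in 7 of the 35 promoters of these genes (20%), against 4.14% of 35116 promoters. The 7 promoters belong to 6 genes, NUP160, NUP35, NUP54, NUP58, POM121 and SEC13. NUP54, with the largest fold change, and NUP58, with the lowest, both hold it, beginning at positions -171 and -67 from the start. CCAAT, the box bound by NF-Y, was present in 13 of the 35 (37.1%) against 34.6% of all promoters, and TTTGAA, an element of cell cycle gene promoters, in 10 (28.6%) against 15.2%. GCATGCGC, the core bound by NRF1, was present in 3 (8.57%) against 3.05%, and the E2F-type motifs GGCGGGAA in 2 (5.71%) against 3.16%, TTTGGCGC in 1 (2.86%) against 0.652% and TTTCGCGC in 0 against 0.515%. Promoters of 1 gene can overlap and are not independent. The 35116 promoters were neither limited to genes tested here nor matched for GC content, so the shares do not single out pore genes among expressed genes. A match is a description of the letters in the window, and binding was not measured here.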
